A study of Mus musculus with 8 samples.

Results

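Loss of E47 in aortic smooth muscle cells of the mouse was described by comparing 2 E47 knockout libraries with 2 E47 wild-type libraries, which are 4 of the 8 libraries of the series. The members are the libraries whose genotype label is E47 WT or E47 KO, and their columns in the count table carry the same library names. The cells were primary cells of the aorta that were thawed into dishes after freezing. RNA was extracted with Trizol, enriched for polyA and sequenced without keeping strand. Each genotype stands for 2 independent RNA extractions. The labels do not say whether these came from separate cultures or animals, how the isoform was removed, whether the knockout is 1 clone, or the age, sex or strain of the mice, so the p-values speak of differences between extractions, and this spread may be technical. The other 4 libraries, E12 wild type and E12 knockout, entered the model to estimate the spread and serve as a second isoform comparison.

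E47 and E12 are proteins of the gene Tcf3 (E2A) that differ in the exon encoding the basic helix-loop-helix (bHLH) domain, the part that dimerises and touches DNA. E proteins bind the E-box, a hexamer of the form CANNTG, as homodimers or with tissue-restricted bHLH partners such as the blood and endothelial factor Tal1 or the mesenchymal factor Twist1, and Id proteins, which lack the DNA-contacting basic region, hold them off DNA. E47 is known from other cells as a repressor of the E-cadherin gene Cdh1 and as an activator of the CDK inhibitor gene Cdkn1a.

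The part of Tcf3 in which the isoforms differ is shown because the comparison turns on it. In the GENCODE M21 annotation (GRCm38), no coding transcript of Tcf3 holds both of the 2 coding exons shown. The upstream one, chr10:80412827-80413062 (minus strand, 236 bases), is in 4 of 12 coding transcripts, and the downstream one, chr10:80410398-80410624 (minus strand, 227 bases), has exactly these borders in 6 of them. Capitals mark the 5 runs of at least 10 bases that stand in both exons in the same order. They hold 80 bases, and the longest has 25. The exons are not assigned to E12 or E47 here, since no label or reference file used here does so.
Tcf3 upstream exon: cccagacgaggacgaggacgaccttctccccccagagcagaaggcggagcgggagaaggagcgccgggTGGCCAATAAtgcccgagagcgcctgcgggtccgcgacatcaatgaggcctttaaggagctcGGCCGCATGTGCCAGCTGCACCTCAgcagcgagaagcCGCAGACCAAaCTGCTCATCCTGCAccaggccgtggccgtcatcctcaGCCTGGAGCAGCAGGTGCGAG
Tcf3 downstream exon: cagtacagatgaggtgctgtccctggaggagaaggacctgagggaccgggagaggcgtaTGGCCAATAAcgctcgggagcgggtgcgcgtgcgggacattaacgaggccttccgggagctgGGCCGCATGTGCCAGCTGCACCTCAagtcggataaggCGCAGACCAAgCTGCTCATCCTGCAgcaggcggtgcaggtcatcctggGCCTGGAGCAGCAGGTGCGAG

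Promoters are shown for members with the largest changes, because E-boxes are the letters E47 binds. Of the 30 genes with the largest changes (15 per direction), 15 had an entry in the RefSeq promoter table (GRCm38.p6), and the window searched was the 250 bases before the annotated start, on both strands. An E-box of the form CANNTG was found in 9 of these 15, near its share of 66.0% of all promoters and 56.2% of promoters of tested genes. The hexamer CAGCTG or the hexamer CAGGTG, each searched on both strands and both a form of CANNTG, was found in 4 of 15. The share was 27.4% of all 27025 promoters of that length and 24.0% of the 10332 promoters of tested genes. The 4 promoters with a hexamer are printed, together with Il33, which had the largest fitted rise among genes with more than 3 counts in both groups and neither hexamer. Capitals mark each CANNTG. Isl1, Prom1 and Adcy4 had no count in the knockout, whereas Fcho1 and Il33 were close to 0 in the wild type.
Isl1 (chr13:116309689-116309938, minus strand): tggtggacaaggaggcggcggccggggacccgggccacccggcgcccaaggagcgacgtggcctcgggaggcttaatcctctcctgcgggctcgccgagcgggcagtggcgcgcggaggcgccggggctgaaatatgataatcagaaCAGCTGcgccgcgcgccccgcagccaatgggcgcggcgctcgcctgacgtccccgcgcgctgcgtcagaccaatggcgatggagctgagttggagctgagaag
Prom1 (chr5:44101737-44101986, minus strand): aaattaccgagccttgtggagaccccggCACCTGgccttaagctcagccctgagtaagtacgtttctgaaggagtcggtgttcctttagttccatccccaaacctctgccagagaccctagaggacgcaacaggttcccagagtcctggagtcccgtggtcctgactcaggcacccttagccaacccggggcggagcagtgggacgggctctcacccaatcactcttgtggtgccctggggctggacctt
Adcy4 (chr14:55784073-55784322, minus strand): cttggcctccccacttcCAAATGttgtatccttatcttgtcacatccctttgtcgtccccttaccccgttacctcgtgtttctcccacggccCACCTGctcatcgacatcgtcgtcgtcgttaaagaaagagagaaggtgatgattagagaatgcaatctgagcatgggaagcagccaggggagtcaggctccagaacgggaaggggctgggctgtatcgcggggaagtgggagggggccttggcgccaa
Fcho1 (chr8:71725682-71725931, minus strand): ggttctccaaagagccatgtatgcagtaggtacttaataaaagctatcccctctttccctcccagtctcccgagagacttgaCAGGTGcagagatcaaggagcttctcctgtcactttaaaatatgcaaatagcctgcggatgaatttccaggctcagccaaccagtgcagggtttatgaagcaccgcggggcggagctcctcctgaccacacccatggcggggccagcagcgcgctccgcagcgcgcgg
Il33 (chr19:29924863-29925112, plus strand): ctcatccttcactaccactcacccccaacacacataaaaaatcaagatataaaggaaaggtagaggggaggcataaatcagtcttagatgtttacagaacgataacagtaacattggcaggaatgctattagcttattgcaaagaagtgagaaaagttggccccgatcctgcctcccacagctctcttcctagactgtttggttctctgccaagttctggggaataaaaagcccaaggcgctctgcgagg

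Across all tested genes the share of promoters with 1 or both of these hexamers was 29.5% of 748 promoters of genes more than 2-fold higher in the knockout, 27.2% of 670 promoters of genes more than 2-fold lower, and 23.9% of 4469 promoters of genes not past the test. These shares describe letters in a short window and were not tested.

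Total counts were 14912823 and 27517374 in the wild-type libraries and 18394466 and 14452545 in the knockout libraries. Levels are in CPM, the counts of a gene relative to the size of its library after scaling by the trimmed mean of M values, given for the first and second library of a group. A count of 0 in both libraries of a group was read as fewer than 3 counts over the group, and folds against such a group are lower bounds that cover counting error only. Most of 33 smooth muscle markers were present in all 4 libraries, but 3 were under 1 CPM in both wild-type libraries and 4 in both knockout libraries. Acta2, smooth muscle actin, was at 3697 and 3442 CPM in the wild type and 2119 and 2099.7 CPM in the knockout. The wild-type libraries also held endothelial markers. The summed level of 23 such markers was 1279 and 1172 CPM there, 240.4 and 243 CPM in the knockout, and 77.5 to 139 CPM in the E12 libraries. In the knockout 17 of the 23 were under 1 CPM, of which 4 had no count, and Cldn5 and Mmrn1 had none in any E47 library. In these bulk libraries, fewer cells of a type and less RNA per cell cannot be told apart. Of 15 macrophage markers, 5 had no count in any E47 library, among them Itgam, C1qa and Tyrobp. The summed level of the 15 was 16.5 and 15.4 CPM in the wild type and 11.7 and 11.8 CPM in the knockout, and of the 4 that were tested 1 was higher and 2 lower (log2 changes from -2.71 to 2.62). Of 8 lymphocyte markers, 4 had no count in any E47 library, among them Cd3e of T cells, and their summed level was at most 0.234 CPM. The part of these cells in the changes was not tested.

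The E47 knockout differed from its wild type across the transcriptome. Of 13992 genes tested, 7728 passed an adjusted p of 0.05 (55.2%; edgeR quasi-likelihood test, Benjamini-Hochberg adjustment over all genes tested), 3875 of them higher (27.7%) and 3853 lower (27.5%) in the knockout. Most of these changes were small, and 51.5% of the called genes moved by less than 1.5-fold. More than 2-fold changes numbered 1077 higher (7.70%) and 1006 lower (7.19%), and 79 genes were more than 16-fold higher and 107 more than 16-fold lower. In 77.6% of all tested genes both knockout libraries lay outside the range of the wild-type libraries, so absence of overlap between groups was common. Counts of list members below are to be read beside the shares of 27.7% higher and 27.5% lower over all genes.

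The E47 wild type, rather than the knockout, stood apart from the E12 wild type in many of the genes that changed most. Of the 1006 genes more than 2-fold lower in the knockout, the E12 wild type was nearer to the E47 knockout than to the E47 wild type in 78.7%, on the scale of log2(CPM + 0.5). Among the 1077 genes more than 2-fold higher it was nearer to the knockout in 68.7%. This held for 15 of the 15 largest falls named below and for 8 of the 15 largest rises. No test was made of this difference between the wild types.

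**Figure D1:**
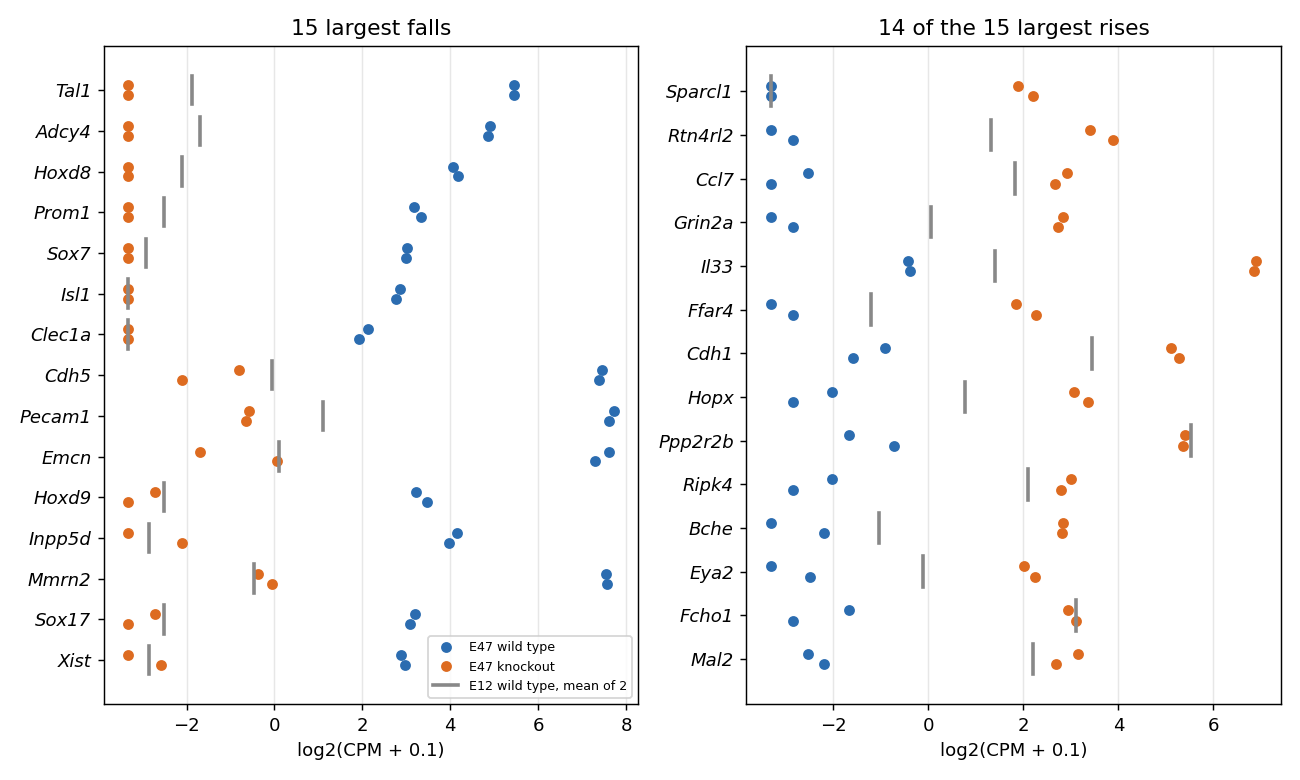
Levels of the 15 genes with the largest falls and of 14 of the 15 with the largest rises, as log2(CPM + 0.1), with 1 point per library, E47 wild type in blue and knockout in orange, with the mean of the 2 E12 wild-type libraries as a grey bar. Genes were chosen so that the 2 groups do not overlap, and for all 15 falls the grey bar lies nearer to the knockout points.

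Genes of endothelial identity led the falls. Tal1 (chr4:115056426-115071755, plus strand), a bHLH partner of E proteins in blood and endothelium, was at 43.5 and 43.8 CPM in the wild type and had no count in the knockout, at least 498-fold lower. Cdh5 (chr8:104101625-104144511, plus strand), which encodes the cadherin of endothelial junctions, was at 174 and 167 CPM in the wild type and 0.468 and 0.134 CPM in the knockout (log2 change -9.02, SE 0.169, adjusted p = 1.1e-14). Pecam1, an endothelial adhesion molecule, went from 211 and 194 to 0.572 and 0.535 CPM (log2 change -8.49, SE 0.135, adjusted p = 4.9e-15). For these genes the wild-type libraries lay close together and both knockout libraries were under 1 CPM. Emcn, the endothelial sialomucin, was at 196 and 157 CPM against 0.208 and 0.937 CPM (log2 change -8.36, SE 0.222, adjusted p = 3.1e-13), and Mmrn2, an endothelial matrix glycoprotein, at 187 and 191 CPM against 0.676 and 0.870 CPM (log2 change -7.94, SE 0.137, adjusted p = 4.9e-15). Sox7, a SOX factor of vessels, had no count in the knockout and was at 8.03 and 7.88 CPM in the wild type (at least 90.4-fold lower), and its relative Sox17 went from 9.11 and 8.31 CPM to 1 count. Of 20 endothelial markers tested, all 20 were lower and none higher in the knockout, with a median log2 change of -5.57 against 0.01 over all genes.

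The other large falls were in genes of several kinds. Adcy4, an adenylate cyclase, was at 29.8 and 28.8 CPM in the wild type and had no count in the knockout (at least 332-fold lower). Hoxd8, a homeobox gene of the HoxD cluster, was at 16.7 and 17.9 CPM and then at no count (at least 199-fold lower), and its neighbour Hoxd9 went from 9.18 and 10.9 CPM to 1 count. No count was found in the knockout either for Prom1, a membrane glycoprotein gene (at least 110.0-fold lower), Isl1, a LIM-homeodomain factor gene (at least 78-fold lower), or Clec1a, a C-type lectin gene (at least 44.6-fold lower). Inpp5d, a phosphoinositide phosphatase gene, went from 17.6 and 15.6 CPM to 2 counts. Xist, the RNA that coats the inactive X chromosome, was at 7.31 and 7.73 CPM in the wild type and had 1 count over both knockout libraries, while the Y-linked Ddx3y was at 137 and 154 CPM in the wild type and 103 and 90.1 CPM in the knockout. Of the E47 libraries, the wild-type ones alone held Xist beyond 1 count beside Y-linked transcripts, and the endothelial markers were also high there. The part of this in the changes was not tested.

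The largest rises were in genes that were all but silent in the wild type. Il33 (chr19:29925114-29960718, plus strand), a nuclear cytokine of barrier and stromal cells, was at 0.645 and 0.663 CPM in the wild type and 119 and 116 CPM in the knockout (log2 change 7.47, SE 0.129, adjusted p = 4.9e-15). Cdh1 (chr8:106603351-106670246, plus strand), E-cadherin, rose from 0.430 and 0.234 to 34.3 and 38.5 CPM (log2 change 6.87, SE 0.216, adjusted p = 1.7e-12). Both genes were low in both E47 wild-type libraries and at similar levels in both E47 knockout libraries. Cdh1 was not near silence in E12 cells, where wild-type levels were 10.3 and 11.4 CPM and knockout levels were 16.2 and 19.7 CPM. Whether loss of E47 itself raised Cdh1 was not tested. Sparcl1, a matricellular protein gene, had no count in the wild type or in any E12 library and was at 3.59 and 4.48 CPM in both knockout libraries, a rise of at least 52.5-fold. Ppp2r2b, a regulatory subunit gene of protein phosphatase 2A, rose from 0.215 and 0.507 to 42 and 40.8 CPM (log2 change 6.66, SE 0.169, adjusted p = 2.2e-13). Fcho1, an endocytosis gene, rose from 4 counts to 7.54 and 8.50 CPM (6.20, adjusted p = 1.8e-09) and Mal2, a membrane traffic gene, from 4 counts to 8.79 and 6.29 CPM (6.14, adjusted p = 5.2e-09).

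A further 8 of the 15 largest rises started from at most 3 counts over the wild-type libraries, so only levels are given. Rtn4rl2, a Nogo receptor family gene, reached 10.5 and 14.7 CPM from 1 count. The chemokine gene Ccl7 reached 7.44 and 6.22 CPM and the NMDA receptor subunit gene Grin2a 7.08 and 6.56 CPM, both from 1 count. Ripk4, a kinase gene of epithelia, reached 7.86 and 6.82 CPM and Bche, which encodes butyrylcholinesterase, 7.02 and 6.89 CPM, both from 3 counts. Hopx, a homeodomain-only protein gene, reached 8.27 and 10.2 CPM from 3 counts, with 27.2% of its exon length overlapped by another gene and so uncertain without strand. The fatty acid receptor gene Ffar4 reached 3.49 and 4.68 CPM from 1 count and the transcriptional coactivator gene Eya2 3.95 and 4.62 CPM from 2 counts.

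Tcf3 itself was higher, not lower, in the knockout, at 94.6 and 93.7 CPM in the wild type and 128 and 128 CPM in the knockout (log2 change 0.44, SE 0.0636, adjusted p = 3.4e-05). Counts per gene do not separate the exons printed above, so they do not check the loss of E47. Among E and Id protein genes, 2 of 7 were higher (28.6%) and 3 lower (42.9%), against 27.7% and 27.5% over all genes. With upper quartile scaling 1 was lower. Twist1, a mesenchymal bHLH partner, fell from 93.4 and 89.5 to 42.1 and 46 CPM (log2 change -1.06, SE 0.0750, adjusted p = 1.9e-08), and Epas1, a hypoxia-inducible bHLH-PAS factor abundant in endothelium, from 317 and 319 to 34.6 and 33.9 CPM (log2 change -3.21, SE 0.0825, adjusted p = 2.4e-13). The clock-linked bHLH repressors moved apart. Bhlhe40 rose from 26.5 and 27.7 to 62.2 and 70.1 CPM (1.28, adjusted p = 1.2e-08), whereas Bhlhe41 fell from 65.5 and 64.7 to 27.1 and 33.3 CPM (-1.12, adjusted p = 8.2e-08). Of 16 bHLH partners and repressors tested, 5 were higher and 7 lower.

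The most abundant transcripts changed too, though by less. Among the 100 genes with the highest CPM per kb of exon over the E47 libraries, 37 were higher and 46 lower in the knockout, of which 1 and 9 by more than 2-fold. Over all genes, 27.7% were higher and 27.5% lower. Calls, mainly of lower genes, were more common at higher levels. Of 3 equal classes of mean CPM, the highest had 27.7% higher and 38.8% lower, and the lowest 24.4% and 18.4%. The 57-base predicted small RNA Gm23935 ranked first, at 5476 and 9463 CPM per kb in the wild type and 5816 and 3938 CPM per kb in the knockout, and its libraries overlapped between genotypes. Next stood mt-Co1, a mitochondrially encoded subunit of cytochrome oxidase, at 4813 and 3902 CPM per kb in the wild type and 2633 and 2506 CPM per kb in the knockout. Eef1a1, the translation elongation factor, was at 2315 and 2330.4 against 2933 and 2752 CPM per kb. Both Eef1a1 libraries of the knockout lay above those of the wild type, and both mt-Co1 libraries below. Fn1 (fibronectin) was at 3460.4 and 3223 against 1125 and 1461 CPM per kb, Thbs1 (thrombospondin) at 2556 and 2717 against 1855 and 1968 CPM per kb and Actb (cytoplasmic actin) at 1932 and 2000.3 against 1721 and 1663 CPM per kb. The main chain of type I collagen, Col1a1, did not pass the test, with a log2 change of 0.16 (adjusted p = 0.12, edgeR), and passed it without the first knockout library (0.28, adjusted p = 0.021).

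Fibronectin was the gene with the most counts in the wild type. Fn1 (chr1:71585520-71653200, minus strand), the fibrillar matrix glycoprotein that cells grip through integrins, was at 40435 and 37660.3 CPM in the wild type and 13151 and 17076 CPM in the knockout (log2 change -1.37, SE 0.136, adjusted p = 7.6e-07). It took 3.78% and 3.51% of all counts in the wild type and 1.37% and 1.77% in the knockout. The knockout libraries differed from each other, yet both lay far below the wild type. Fbln5, an elastic fibre assembly protein gene, fell from 7421 and 7316 to 1598 and 1676 CPM (log2 change -2.17, SE 0.0661, adjusted p = 1.1e-12). Txndc5, an endoplasmic reticulum disulphide isomerase gene, fell from 3034 and 3112 to 867 and 838 CPM (-1.85, adjusted p = 8.5e-12). Fstl1, a secreted glycoprotein gene, fell by 0.97 on the log2 scale.

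On the rising side of the abundant genes, Tmsb4x, the actin-sequestering thymosin beta 4, was the one that passed 2-fold. It went from 1112 and 1002 to 2255 and 2305 CPM (log2 change 1.11, SE 0.0815, adjusted p = 2.8e-08). Ptma, prothymosin alpha, went from 305 and 302 to 599 and 582 CPM (0.96, adjusted p = 3.0e-08). Timp3, a matrix-bound inhibitor of metalloproteinases, went from 2091 and 2322 to 4440.1 and 3928 CPM (0.92, adjusted p = 1.4e-07), with 21.3% of its exon length overlapped by another gene. S100a6, a calcium-binding protein gene, rose by 0.84. In each of these 4 genes the knockout libraries were both higher and close to each other.

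**Figure D2:**
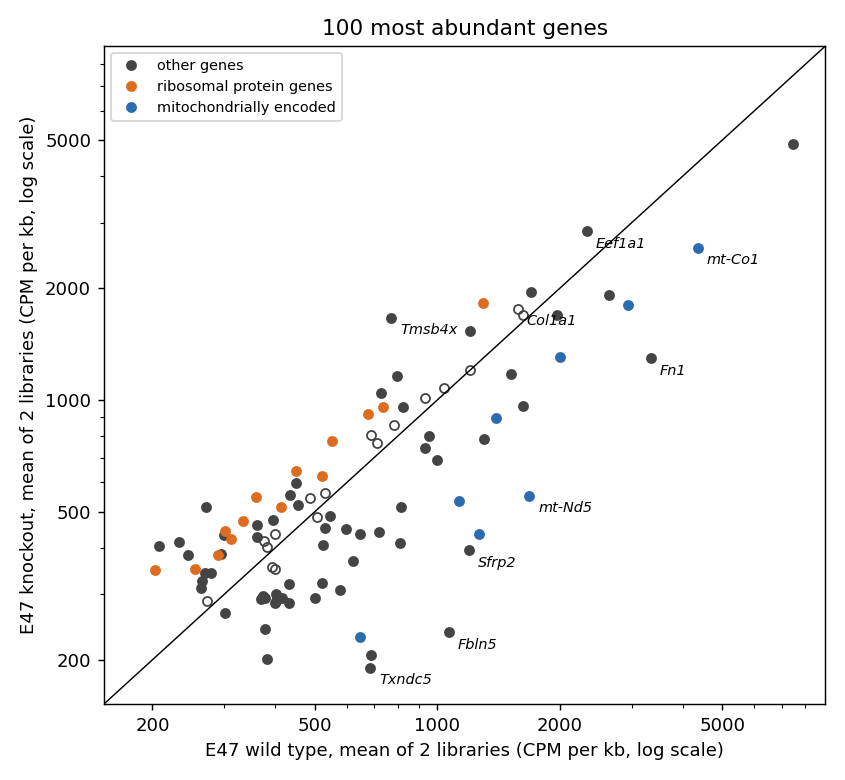
Mean level in the knockout against mean level in the wild type for the 100 genes with the highest CPM per kb of exon, both axes logarithmic, 1 point per gene. Genes past the test are filled, the line marks equal levels, and mitochondrially encoded genes (blue) and Fn1, Fbln5, Txndc5 and Sfrp2 lie below it while ribosomal protein genes (orange) lie above.

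Ribosomal protein genes rose together, by small amounts. Of 80 cytosolic ribosomal protein genes tested, 75 were higher and 0 lower in the knockout, with a median log2 change of 0.51 and none above 2-fold. Rpl23, a large subunit protein gene, went from 393 and 337 to 573 and 639 CPM (log2 change 0.73, SE 0.0829, adjusted p = 3.2e-06) and Rps16, a small subunit protein gene, from 266 and 239 to 399 and 443 CPM (log2 change 0.74, SE 0.0896, adjusted p = 6.4e-06). Rpl3 went from 596 and 586 to 908 and 864 CPM (0.59, adjusted p = 4.8e-06). In each of the 3 the knockout libraries were the higher ones. The family's share of all counts was 2.37% and 2.05% in the wild type, 3.34% and 3.59% in the knockout, and 3.21% to 4.22% in the E12 libraries. Many of these genes have processed copies elsewhere in the genome, so reads shared with the copies make the counts uncertain. Of 67 translation factors, 32 were higher and 13 lower (28 and 18 with length offsets). Eef1g, an elongation factor subunit, rose from 653 and 619 to 994 and 993 CPM (0.64, adjusted p = 1.6e-06), whereas Eif4g1, the scaffold of the cap-binding complex, fell from 1109 and 1189.7 to 644 and 660.0 CPM (-0.82, adjusted p = 1.9e-07).

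The nuclear and mitochondrial genomes moved in opposite directions for the respiratory chain. Of 79 nuclear genes for respiratory chain subunits, 66 were higher and 1 lower (median 0.41), and without the second wild-type library 41 were higher. Ndufv1, a complex I subunit gene, rose from 51.1 and 51.3 to 82.1 and 81.1 CPM (log2 change 0.67, SE 0.0687, adjusted p = 1.1e-06), and Cox8a, a cytochrome oxidase subunit gene, from 117 and 101 to 169.8 and 195 CPM (log2 change 0.74, SE 0.0876, adjusted p = 4.9e-06). Of 13 mRNAs encoded by mitochondrial DNA, 12 were lower and 0 higher (median -0.70). With offsets that set the median of every chromosome equal in all libraries, the mitochondrial one included, 9 of these were higher and 2 lower. Without them, the complex I subunit mRNA mt-Nd5 fell from 3265 and 2867 to 1104 and 911 CPM (log2 change -1.61, SE 0.128, adjusted p = 7.1e-08) and mt-Co1 from 7436 and 6029 to 4068 and 3871 CPM (log2 change -0.76, SE 0.118, adjusted p = 7.0e-05). Genes with an mt- symbol took 2.13% and 1.73% of counts in the wild type against 1.18% and 1.11% in the knockout. Every wild-type value lay above every knockout value, and the E12 libraries, at 0.798% to 1.38%, were on the knockout's side. Mitochondrial ribosomal protein genes are nuclear and went with the nuclear set, 53 higher and 1 lower of 77 (median 0.39). Proteasome subunits were higher in 21 and lower in 2 of 37 cases (median 0.21), and in 17 and 6 with the length offsets described next. Psmb6, a catalytic core subunit gene, rose from 65.5 and 66.1 to 103 and 114 CPM (0.72, adjusted p = 1.8e-06).

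Transcript length moved with these shifts. Of 5 equal classes of transcript length, the shortest had 37.1% of genes higher and 11% lower (median 0.26), and the longest 16.8% higher and 50.7% lower (median -0.26). The median fell from each class to the next. Libraries of 1 genotype also differed along length, by a median of -0.09 in the shortest and 0.06 in the longest class between the second and first wild-type library, and the E12 knockout showed medians of -0.04 and 0.02. With offsets that make the median of each of 20 length bins equal in all libraries, which were added after the results were known, 62 of 80 ribosomal protein genes were higher and 1 lower. The same setting left 44 higher and 8 lower of the 79 nuclear respiratory genes and 39 higher and 4 lower of the 77 mitochondrial ribosomal protein genes, against 27.2% higher and 27.5% lower over all genes in that fit. Relative to the median of each gene's own length bin, the median log2 change was 0.25 for the ribosomal protein genes against 0.51, 0.20 for the nuclear respiratory genes against 0.41, 0.26 for the mitochondrial ribosomal protein genes against 0.39 and 0.11 for the proteasome subunits against 0.21. The mitochondrially encoded mRNAs, which are short, were lower in 13 of 13 cases with the length offsets. The part of length in the remaining values was not tested.

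**Figure D3:**
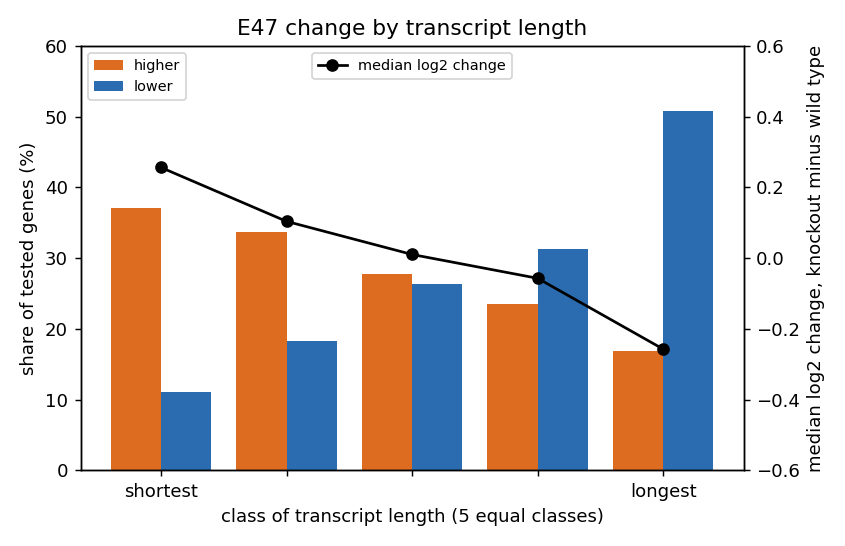
Share of tested genes higher (orange) and lower (blue) in the E47 knockout in each of 5 equal classes of transcript length, from shortest to longest, with the median log2 change of the class as black points on the right axis. The higher share runs from 37.1% in the shortest to 16.8% in the longest class and the lower share from 11.0% to 50.7%.

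Contractile genes were lower in the knockout. Of 31 tested, 23 were lower and 2 higher, with a median log2 change of -0.84. Myh11, the smooth muscle myosin heavy chain, fell from 97.1 and 99.6 to 7.44 and 6.42 CPM (log2 change -3.82, SE 0.124, adjusted p = 2.2e-12), Mylk, myosin light chain kinase, from 166 and 173 to 22.9 and 23.1 CPM (log2 change -2.88, SE 0.0775, adjusted p = 3.4e-13), and Cnn1, calponin, from 107 and 101 to 21 and 18.6 CPM (log2 change -2.38, SE 0.0825, adjusted p = 4.6e-12). Acta2 fell by less (log2 change -0.76, SE 0.0646, adjusted p = 1.4e-07). All 4 genes were higher in both wild-type libraries. The E12 wild type stood at 7.45 CPM for Myh11 and 7.34 CPM for Cnn1, close to or below the E47 knockout. Genes that answer to SRF and YAP, the factors tied to actin tension, were lower in 16 and higher in 4 of 26 cases. In that list, Nt5e, an ecto-nucleotidase gene, fell by 3.48 and Ankrd1 fell by 1.15, while Axl, a receptor tyrosine kinase gene, rose by 0.76 on the log2 scale. Vasoactive systems were divided, 13 higher (38.2%) and 18 lower (52.9%) of 34, against 27.7% and 27.5% over all genes. Endothelial markers were also higher in the E47 wild type, and the part of this in the vasoactive changes was not tested. Edn1 (endothelin 1) fell from 151 and 142 to 22.3 and 22.1 CPM (-2.72, adjusted p = 4.8e-13), Ace (angiotensin-converting enzyme) from 93.3 and 87.6 to 5.67 and 5.82 CPM (-3.97, adjusted p = 6.6e-13) and Prkg1, the kinase that carries the nitric oxide signal in smooth muscle, from 34.1 and 38.9 to 2.24 and 1.67 CPM (-4.20, adjusted p = 6.5e-12).

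Markers of mesothelium and fibroblasts were mostly higher. Of 10 mesothelial markers tested, 8 were higher and 2 lower (median 3.10). Krt18, given with the keratins below, was among the 2 that fell. Of the 12 markers listed, 6 were under 1 CPM in both wild-type libraries. The summed level of the 12 listed markers was 365 and 346 CPM in the wild type against 530.2 and 542 CPM in the knockout. It was higher in the E12 libraries, at 1947 and 1823 CPM in the wild type and 1157.1 and 1196 CPM in the knockout. Msln (mesothelin) rose from 1.0 and 1.17 to 42.5 and 45.7 CPM (log2 change 5.30, SE 0.134, adjusted p = 2.2e-13) and Krt19, a keratin, from 12.3 and 13.6 to 148 and 156 CPM (log2 change 3.54, SE 0.0937, adjusted p = 3.1e-13). The defining marker Muc16 had no count in any E47 library. Keratin genes were higher in 6 of 7 cases, and the exception was Krt18, another keratin of simple epithelia, which fell from 122 and 111 to 1.09 and 1.27 CPM (log2 change -6.63, SE 0.140, adjusted p = 3.7e-14). Its usual partner Krt8, looked up after the values were seen, had at most 0.449 CPM in any library. Of 14 adventitial fibroblast markers tested, 10 were higher and 3 lower. The summed level of the 15 listed was 810 and 821 CPM in the wild type against 1246 and 1303 CPM in the knockout. Of these 15, 6 were under 1 CPM in both wild-type libraries. Dcn, the small matrix proteoglycan decorin, rose from 2.15 and 1.95 to 90.4 and 99 CPM (log2 change 5.54, SE 0.147, adjusted p = 3.1e-13), whereas Cd34, which endothelium also carries, fell from 95.2 and 91.7 to 18.2 and 18.1 CPM (-2.36, adjusted p = 4.6e-12).

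**Figure D4:**
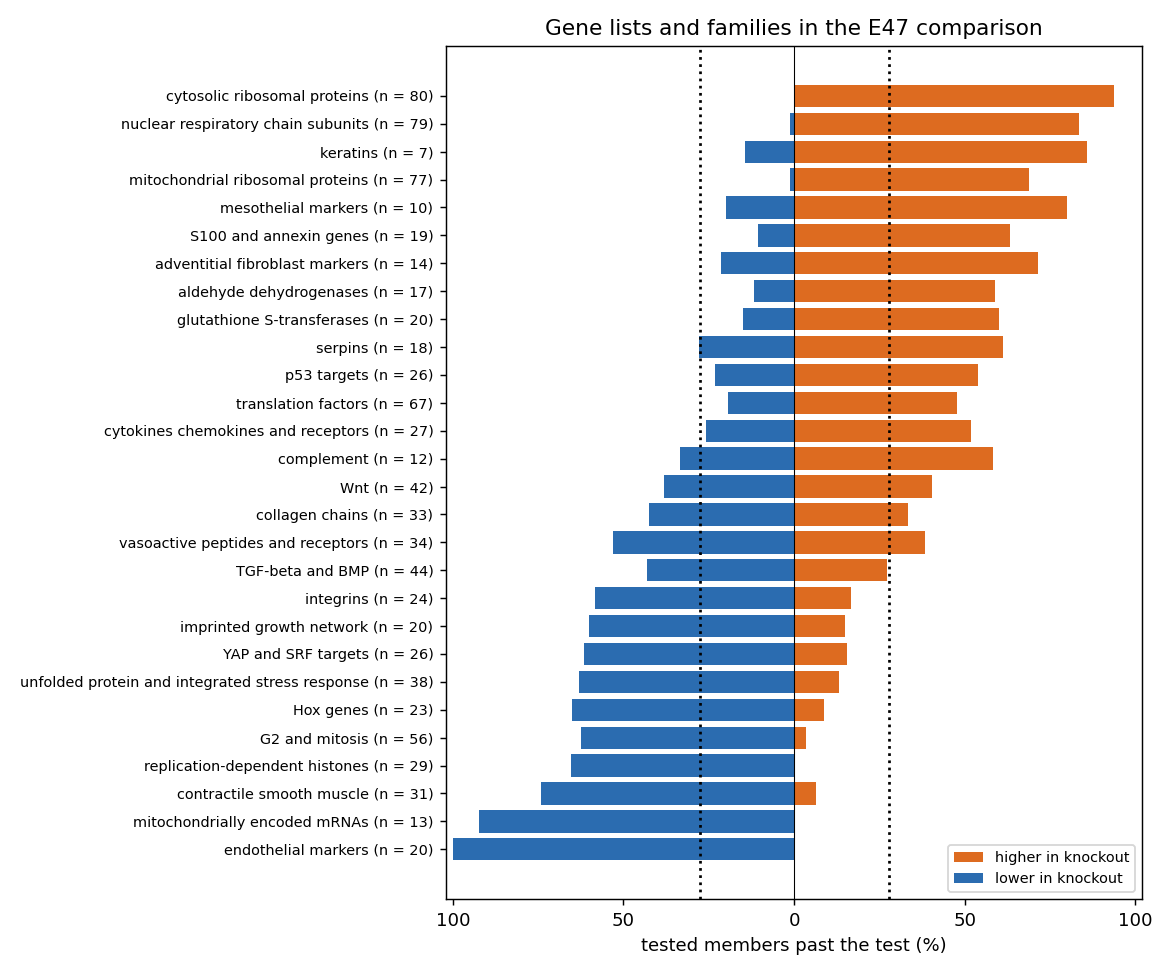
Share of tested members higher (orange, to the right) and lower (blue, to the left) in the E47 knockout for the main gene lists and families, with the number tested beside each name. The dotted lines mark the shares over all tested genes, 27.7% and 27.5%: ribosomal protein, respiratory chain and keratin genes lie far to the right and endothelial, mitochondrially encoded (except with chromosome offsets) and contractile genes far to the left.

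The extracellular matrix changed in composition. Of 33 collagen chain genes, 11 were higher and 14 lower (14 and 12 with length offsets). Col8a1, a short-chain collagen of vessel walls, fell from 2249.6 and 2498 to 634 and 592 CPM (log2 change -1.95, SE 0.0722, adjusted p = 9.5e-12) and Col18a1, a basement membrane collagen, from 163 and 161 to 28.7 and 29.2 CPM (-2.49, adjusted p = 1.9e-12), while Col4a6, another basement membrane chain, rose from 17.4 and 17.7 to 171 and 177 CPM (log2 change 3.31, SE 0.0767, adjusted p = 9.5e-14). Eln (elastin) fell from 2438 and 2562 to 677 and 677 CPM (log2 change -1.88, SE 0.0656, adjusted p = 4.7e-12) and Postn (periostin) from 303 and 294 to 66.3 and 74.4 CPM (-2.09, adjusted p = 5.2e-12). The fibulin-like gene Efemp1 rose from 11.5 and 9.44 to 105 and 114 CPM (3.41, adjusted p = 5.3e-13) and the cross-linking enzyme gene Loxl4 from 35.4 and 37.8 to 209 and 185 CPM (2.43, adjusted p = 6.2e-12). Both groups were tight and apart in all of these. Vcan (versican) rose by 2.67 and Sdc1, a cell surface heparan sulphate proteoglycan gene, by 1.36, among 23 proteoglycan genes of which 11 were higher and 7 lower. Integrins, the matrix receptors, were lower in 14 and higher in 4 of 24 cases. Itga9 fell from 46.8 and 48.2 to 11.4 and 11.6 CPM (-2.04, adjusted p = 1.7e-10) and Itga8 from 82.6 and 82.2 to 19.6 and 20.8 CPM (-2.03, adjusted p = 2.6e-10), and the E12 wild type, at 1.56 and 2.78 CPM, was lower still. Mmp3, stromelysin 1, rose from 0.430 and 0.390 to 15.1 and 18.7 CPM (5.35, adjusted p = 2.0e-11).

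Secreted signals moved strongly in both directions. Among 44 TGF-beta and BMP pathway genes, 12 were higher (27.3%) and 19 lower (43.2%), against 27.7% and 27.5% over all genes. Bmp6 fell from 356 and 373 to 15 and 12.6 CPM (log2 change -4.71, SE 0.0973, adjusted p = 2.9e-14), Bmp4 from 834 and 823 to 254 and 235 CPM (log2 change -1.76, SE 0.0670, adjusted p = 1.4e-11) and the endothelial BMP receptor gene Acvrl1 from 22.4 and 21.3 to 2.13 and 2.14 CPM (-3.34, adjusted p = 5.7e-11). Wnt pathway genes were split, 17 higher and 16 lower of 42, and the secreted antagonists among the named members were on the lower side. Frzb fell from 574 and 543 to 12.7 and 16.4 CPM (log2 change -5.27, SE 0.118, adjusted p = 7.5e-14), Sfrp1 from 652 and 658 to 111 and 105 CPM (-2.60, adjusted p = 2.4e-13) and Sfrp2 from 2715 and 2439 to 767 and 930.0 CPM (-1.60, adjusted p = 9.7e-10), whereas the ligand gene Wnt4 rose from 0.215 and 0.820 to 14.5 and 17.7 CPM (4.71, adjusted p = 9.3e-10). Notch1 fell by 1.79 and the ligand gene Jag2 rose by 2.34, among 21 Notch pathway genes of which 8 were higher and 7 lower. Guidance genes of the netrin and slit families were lower in 8 and higher in 2 of 12 cases, with Slit2 down from 669 and 721 to 197 and 184 CPM (-1.87, adjusted p = 8.8e-10) and the netrin receptor gene Unc5b from 1221 and 1283 to 460.0 and 457 CPM (-1.45, adjusted p = 1.2e-10). Sema3e, a semaphorin of vessel patterning, fell from 424 and 434 to 15.4 and 16.1 CPM (log2 change -4.77, SE 0.0836, adjusted p = 4.9e-15), and its relative Sema3c rose from 90.2 and 95.9 to 474 and 442 CPM (log2 change 2.30, SE 0.0747, adjusted p = 2.2e-12).

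Cytokine, chemokine and complement genes were more often higher than lower, and other defence lists were not. Of 27 cytokine, chemokine and receptor genes, 14 were higher (51.9%) and 7 lower (25.9%), against 27.7% and 27.5% over all genes. Their median log2 change was 0.28, and 0.15 relative to the median of each gene's own chromosome. The monocyte attractant gene Ccl2 rose from 0.215 and 0.234 to 7.80 and 7.36 CPM (log2 change 5.02, SE 0.273, adjusted p = 8.4e-10) and the neutrophil attractant gene Cxcl1 from 1.0 and 0.976 to 11.7 and 14.7 CPM (log2 change 3.72, SE 0.199, adjusted p = 7.1e-10). Tnfsf18, a TNF family ligand gene, rose from 3.66 and 2.38 to 86.9 and 85.8 CPM (log2 change 4.91, SE 0.137, adjusted p = 4.8e-13), and was at 839 CPM in the E12 wild type. Of 12 complement genes, 7 were higher (58.3%) and 4 lower (33.3%), both above the shares over all genes. C3, the central component, rose from 25.7 and 25.3 to 70.7 and 88.2 CPM (1.64, adjusted p = 5.3e-08) and Cd55, a brake on complement at the cell surface, from 12.5 and 11.6 to 112 and 108 CPM (3.20, adjusted p = 3.3e-13). Of 20 TNF ligands and receptors, 8 were higher and 7 lower (median -0.10). Of 30 interferon-stimulated and antigen presentation genes, 10 were higher and 7 lower (median 0.01), near the shares over all genes, with 4 lower without the second wild-type library and 2 without the first knockout library. Gimap and guanylate-binding genes, low throughout, were lower in 6 and higher in 0 of 8 cases. Among serpins, 11 were higher and 5 lower of 18, led by Serpinb1a, an inhibitor of neutrophil proteases, which rose from 48.3 and 43.4 to 507 and 480.0 CPM (log2 change 3.43, SE 0.0819, adjusted p = 1.1e-13). Annexin and S100 genes were higher in 12 and lower in 2 of 19 cases, and Anxa8 rose from 9.25 and 10.3 to 365 and 338 CPM (log2 change 5.16, SE 0.0899, adjusted p = 4.9e-15).

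Cell cycle genes of the mitotic set were mostly lower in the knockout. Of 56 genes of G2 and mitosis, 35 were lower and 2 higher, with a median of -0.35 and 2 lower by more than 2-fold. Mki67, the proliferation antigen Ki-67, fell from 115 and 105 to 42.7 and 42 CPM (log2 change -1.37, SE 0.168, adjusted p = 7.0e-06) and Cenpe, a kinetochore motor, from 43.6 and 51.1 to 22 and 22.6 CPM (log2 change -1.10, SE 0.116, adjusted p = 1.5e-06), while Pttg1 (securin) rose from 8.82 and 7.84 to 18.3 and 19.3 CPM (log2 change 1.19, SE 0.109, adjusted p = 3.3e-07). Of 40 genes of DNA replication 9 were higher (22.5%) and 12 lower (30%), near the shares of 27.7% and 27.5% over all genes. Without the first knockout library these were 5 and 6, and without the second wild-type library 4 were higher. Of 20 genes for G1 cyclins, their kinases and the RB family, 10 were lower and 3 higher (median -0.21), with 6 lower without the second knockout library and 5 higher with chromosome offsets. Among the 3 that rose, Ccnd1 (cyclin D1) went from 390.0 and 425 to 844 and 768 CPM (0.98, adjusted p = 3.5e-08), although another gene covers 23.4% of its exons. Cdkn1a (p21) rose from 296 and 306 to 403 and 416 CPM (log2 change 0.44, SE 0.0644, adjusted p = 3.7e-05), Cdkn2a (p16 and p19) from 45.6 and 43.7 to 69.2 and 74.9 CPM (log2 change 0.69, SE 0.0856, adjusted p = 7.9e-06) and Cdkn2b (p15) from 28.3 and 25.7 to 55.4 and 52 CPM (log2 change 1.0, SE 0.0926, adjusted p = 3.7e-07). Cdkn1b (p27) was at 83.9 and 91.2 against 78.5 and 79.7 CPM (-0.15, adjusted p = 0.096). Of 7 CDK inhibitor genes 3 were higher and 1 lower (3 and 3 with length offsets). Trp53 rose from 81 and 70.6 to 134 and 128 CPM (0.80, adjusted p = 5.6e-07), and 14 of 26 p53 targets were higher and 6 lower, or 8 higher without the first knockout library.

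Replication-dependent histone genes, whose mRNAs mostly lack a polyA tail, were lower in 19 and higher in 0 of 29 cases, or lower in 12 without the second wild-type library. H2bc6 was at 15.2 and 18 CPM in the wild type and 5.83 and 5.95 CPM in the knockout (log2 change -1.51, SE 0.136, adjusted p = 2.6e-07). The E12 wild type held 4.08 CPM of it, below the E47 knockout. These are near-identical copies, so their counts are uncertain, and polyA-enriched libraries sample them poorly.

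Stress and metabolic families leaned to different sides. Genes of the unfolded protein and integrated stress response were lower in 24 and higher in 5 of 38 cases (median -0.23). The chaperone genes Hyou1, at 409 and 459.7 against 268 and 261 CPM (-0.72, adjusted p = 1.2e-06), and Dnajb11, at 236 and 229 against 154 and 154 CPM (-0.59, adjusted p = 1.4e-06), fell, and the stress-induced factor gene Atf3 rose from 6.45 and 7.14 to 18.8 and 16.2 CPM (1.36, adjusted p = 5.6e-07). Glutathione S-transferases and aldehyde dehydrogenases, enzymes of detoxification, were more often higher than lower. Glutathione S-transferases were higher in 12 and lower in 3 of 20 cases (10 and 5 with length offsets), with Mgst1 up from 12.2 and 11.7 to 57.5 and 57.5 CPM (log2 change 2.27, SE 0.0994, adjusted p = 6.8e-11). Aldehyde dehydrogenases were higher in 10 and lower in 2 of 17 cases. Aldh3a1 rose from 10.5 and 11 to 179 and 215 CPM (log2 change 4.19, SE 0.104, adjusted p = 1.8e-13), while Aldh1a2, which makes retinoic acid, fell from 82.7 and 85.3 to 30.3 and 26.2 CPM (log2 change -1.57, SE 0.0819, adjusted p = 5.3e-10). Cytochrome P450 genes were higher in 6 and lower in 5 of 17 cases, near the shares over all genes, with 3 lower without the second wild-type library. Genes of the NRF2 response to oxidants were higher in 15 and lower in 6 of 36 cases, but in 11 and 12 with length offsets. The insulin-like growth factor binding protein gene Igfbp3 rose from 27.2 and 24.8 to 255 and 298 CPM (log2 change 3.42, SE 0.0968, adjusted p = 5.3e-13), and Pappa, a protease that cleaves such proteins, fell from 62.2 and 63.7 to 6.61 and 6.96 CPM (log2 change -3.22, SE 0.101, adjusted p = 1.7e-12).

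Transcription factor families of position and lineage were uneven. Over all genes, 27.7% were higher and 27.5% lower. Hox genes were lower in 15 (65.2%) and higher in 2 (8.7%) of 23 cases. Hoxa9 fell from 40.9 and 38.4 to 1.09 and 1.87 CPM (log2 change -4.78, SE 0.179, adjusted p = 1.1e-11) and Hoxa5 from 108 and 98.7 to 23.8 and 27 CPM (log2 change -2.03, SE 0.0824, adjusted p = 3.0e-11). Gata2, a factor of blood and endothelium, fell from 136 and 131 to 7.39 and 6.49 CPM (log2 change -4.26, SE 0.113, adjusted p = 3.1e-13) and Gata3 from 43.9 and 41.8 to 4.63 and 4.55 CPM (-3.22, adjusted p = 3.5e-12). Forkhead genes went both ways, 12 higher (44.4%) and 11 lower (40.7%) of 27. Foxa2, a factor of endoderm and epithelia, rose from 6.81 and 6.36 to 63.6 and 61.4 CPM (log2 change 3.26, SE 0.0903, adjusted p = 4.8e-13), while Foxc2 fell from 157 and 153 to 54.1 and 63.6 CPM (-1.40, adjusted p = 1.2e-09). Imprinted growth genes were lower in 12 (60%) and higher in 3 (15%) of 20 cases. Plagl1 went from 26.2 and 24.4 to 0.208 and 0.201 CPM (log2 change -6.89, SE 0.245, adjusted p = 6.2e-12), Peg10 from 33.8 and 36.1 to 5.25 and 3.88 CPM (-2.92, adjusted p = 3.2e-10) and Grb10 from 177 and 189 to 57.2 and 54.1 CPM (-1.72, adjusted p = 9.4e-11). Immediate early genes were higher in 15 (45.5%) and lower in 8 (24.2%) of 33 cases, the lower share being near that over all genes. Egr1 rose from 197 and 221 to 563 and 599 CPM (1.47, adjusted p = 1.6e-09) and Klf4 from 109 and 116 to 248 and 254 CPM (1.15, adjusted p = 1.4e-09). Klf2, the flow-responsive endothelial factor, fell from 53.8 and 48.2 to 9.0 and 7.83 CPM (-2.58, adjusted p = 3.0e-11).

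Whole chromosomes leaned to 1 side. On chromosome 19, 50.8% of 472 tested genes were higher and 11.0% lower (median log2 change 0.30), and on chromosome 11, 49.1% of 1093 were higher and 11.8% lower (median 0.27). The opposite lean was seen on chromosome 16, with 14.4% of 432 higher and 48.4% lower (median -0.28), and on chromosomes 3 (median -0.20) and 12 (median -0.19). Every one of the 4 pairings of a knockout with a wild-type library gave the same sign on these 5 chromosomes, from 0.26 to 0.28 on chromosome 19 and from -0.28 to -0.25 on chromosome 16. The pairings reuse the same 2 libraries per genotype, so they are not 4 independent comparisons. With length offsets the medians were 0.25 and -0.28. The E12 comparison leaned on other chromosomes, with medians of 0.54 on 18, -0.36 on 9 and 0.30 on 1. With offsets that set the median of every chromosome equal in all libraries, chosen after seeing the data, 3514 genes were higher and 3780 lower. Around Tcf3, 54.3% of 184 genes within 5 Mb passed the test, close to the 55.2% over all genes.

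**Figure D5:**
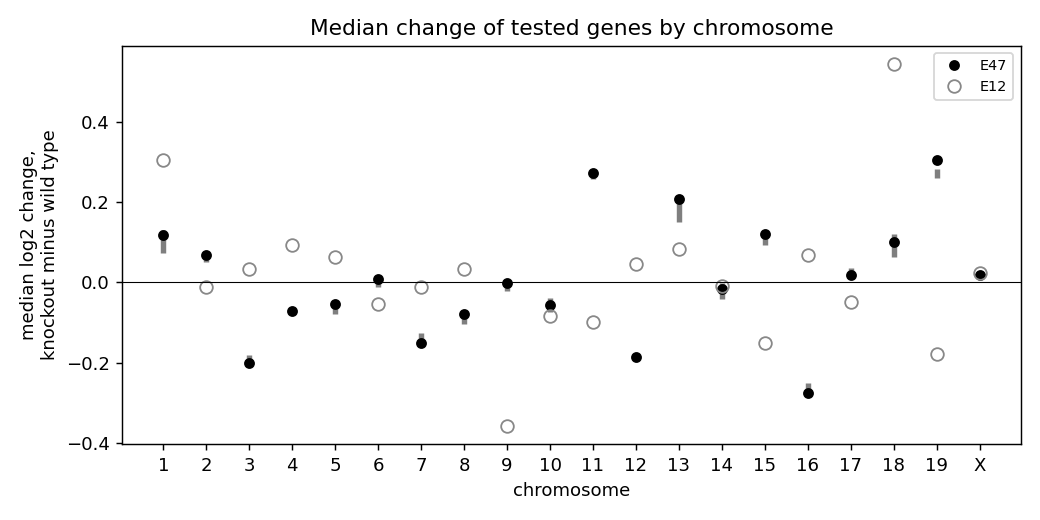
Median log2 change (knockout minus wild type) of the tested genes on each chromosome, with bars from the lowest to the highest of the 4 pairings of a knockout with a wild-type library (computed from CPM per library). E47 medians are in black and the median of the E12 comparison is shown as open grey circles. Chromosomes 11, 13 and 19 lie above 0.2 and chromosomes 3 and 16 below -0.2 in E47, and the mitochondrial chromosome is not plotted.

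The change in the E47 knockout differed from that in the E12 knockout for many genes. The 2 comparisons share no library, and the test of the difference of changes called 6801 of 13992 genes (48.6%), with 3593 more positive (25.7%) and 3208 more negative (22.9%) in E47. S1pr5, a sphingosine-1-phosphate receptor gene, rose in E47 from 0.502 and 0.351 to 11.9 and 11.8 CPM and fell in E12 from 96.0 to 1.83 CPM (mean of 2 libraries), a difference of 10.52 on the log2 scale (SE 0.246, adjusted p = 2.2e-13). Pcdhga11 behaved the other way, falling in E47 from 6.38 and 4.64 to 0.416 and 0.602 CPM and rising in E12 from 0.213 to 24.8 CPM, and it shares 73.6% of its exon length with other protocadherin genes, so its counts are uncertain. Cdkn1a rose in E47 by 0.44 and fell in E12 by 0.46 (difference 0.91, adjusted p = 1.2e-06). For Tcf3 the changes were 0.44 and 0.41 (difference adjusted p = 0.8).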

How the data were processed

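The deposited table holds raw counts per gene for 8 libraries. Per the submitters' processing notes, the build was GRCm38 (mm10) and the tools included featureCounts, HISAT and FastQC, without versions or settings. The gene annotation used for counting is not stated in these sources. Groups came from the genotype labels. Genes were filtered with filterByExpr, scaled by TMM and tested with edgeR 4.0.16 (R 4.3.3) in a 4-group quasi-likelihood model with 4 residual degrees of freedom. P-values were adjusted over all 13992 genes tested by Benjamini-Hochberg, with calls under 0.05. The standard error is the log2 change over the square root of the F statistic. With 2 libraries a group an exact permutation test cannot go below p = 0.333, so shares and other single values carry no test. The fit was tested on simulated data for the E47 comparison (13660 genes), where 58 of 67 genes changed 1.5-fold, 60 of 67 changed 2-fold and 64 of 66 changed 4-fold were recovered and 6 of 13461 unchanged genes were called. The simulation gave every gene the same spread and, apart from the changed genes, the same mean share in all libraries. It held no shifts by length or chromosome and far fewer changed genes, so these figures are not error rates for the real calls. Libraries of a genotype differed by more than sampling noise (chi-square per degree of freedom of 4.75 in the wild type and 4.93 in the knockout), so each was counted as its own library.

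The members, gene lists and families were chosen with earlier results of these data known, and the pattern for histone genes was widened after first results were seen. Named genes were the 15 largest changes per direction with a mean of at least 2 CPM, both knockout libraries on 1 side of both wild-type libraries and no predicted-model symbol. To these were added the 10 most abundant genes per kb and the 10 largest changes per direction among the 100 most abundant, up to 5 genes of lowest p in each list, a fixed set of E protein, smooth muscle, cell cycle, endothelial and sex-linked genes, and the 5 largest differences from E12 per direction. Some genes that met this rule are not reported here. Exon lengths and overlaps came from GENCODE M21, matched by symbol for 13803 of 13992 tested genes, and promoters from RefSeq (GRCm38.p6). The promoters printed were chosen after values were seen. Alternatives were DESeq2 1.42.0, RLE and upper quartile scaling, looser and stricter filters, the E47 libraries alone, leaving out each library, and offsets by transcript length or chromosome.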

Additional observations from a re-analysis of the deposited data

Results flagged for a closer look

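The difference between the E47 change and the E12 change was tested in the same model, and 3593 genes had a more positive and 3208 a more negative change in E47. The 5 largest differences per direction are given here as levels, since several groups held at most 3 counts and a fitted difference then depends on the prior count. Each of the 5 genes on the positive side was higher in the E47 knockout than in its wild type and lower in the E12 knockout than in its wild type. Cpxm2, a carboxypeptidase-like gene, went from 0.717 and 0.741 to 7.86 and 9.43 CPM in E47 and from a mean of 7.16 CPM to no count in E12 (adjusted p of the difference 2.9e-10, edgeR). Nkx2-1, a lung and thyroid homeobox factor gene, went from 0.645 and 0.0390 to 3.80 and 3.95 CPM in E47 and from 9.42 to 0.0242 CPM in E12 (adjusted p = 1.3e-08, edgeR). The same opposite directions were seen for Ripk4, at 4.16 and 0.151 CPM in E12 (adjusted p = 1.1e-09), for Mal2, at 4.52 and 0.0242 CPM in E12 (adjusted p = 5.3e-10), and for S1pr5 (adjusted p = 2.2e-13).

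On the negative side, 4 of the 5 genes were high in the E47 wild type alone. In the E12 wild type and knockout, Tal1 was at 0.171 and 0.0542 CPM (adjusted p of the difference 4.8e-04, edgeR), Adcy4 at 0.208 and 0.103 CPM (adjusted p = 7.6e-05), Inpp5d at 0.0374 and 0.0843 CPM (adjusted p = 0.0014) and Sox7 at 0.0319 and 0.0301 CPM (adjusted p = 0.019). Pcdhga11 moved in opposite directions in the E47 and E12 comparisons (adjusted p = 4.8e-11).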

How the results depend on the processing

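Leaving out each library in turn gave 2921 to 3464 genes higher and 2946 to 3469 lower in the E47 knockout, against 3875 and 3853 with all libraries, 1029 to 1112 and 937 to 997 beyond 2-fold, and 3111 to 3435 more positive and 2606 to 2992 more negative than in E12. DESeq2 called 3092 higher and 3297 lower, and upper quartile scaling 4485 and 3281. None of these counts moved by over 1.5 times under any alternative run. Of 147 genes named in the text that passed the test, 144 were called the same way in every alternative that gave a value. With offsets by chromosome, mt-Co1 reversed to 0.29, because these offsets set the median of the mitochondrial genes to be equal in all libraries, and of 13 mitochondrially encoded mRNAs 9 were then higher and 2 lower, against 0 and 12. Actb missed the threshold with upper quartile scaling (-0.15, adjusted p = 0.077), without the second wild-type library (-0.19, adjusted p = 0.071) and without the second knockout library (-0.18, adjusted p = 0.075), and the small RNA Gm23935 with DESeq2 (-0.63, adjusted p = 0.12), chromosome offsets (-0.33, adjusted p = 0.14), without the second wild-type library (-0.17, adjusted p = 0.42) and without the second knockout library (-0.36, adjusted p = 0.20). Col1a1 passed it with upper quartile scaling (0.23, adjusted p = 0.028), no filter on low counts (0.18, adjusted p = 6.5e-04) and length offsets (0.37, adjusted p = 6.3e-05). The cause was not tested. Of 120 list counts of at least 5 members, 99 stayed within 1.5 times in every alternative. With transcript length offsets, 11 of 36 NRF2 genes were higher and 12 lower against 15 and 6. Of 32 kinesin genes, 11 were lower and 7 higher with these offsets, against 18 and 2. No paired analysis was possible because the labels give no replicate numbers. In the E47 libraries 3 counts corresponded to 0.117 to 0.215 CPM, which limits folds for the genes nearly silent in 1 genotype.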

Other observations

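Further families of signal transduction held large changes. Of 24 adenylate cyclase and phosphodiesterase genes, 13 were lower and 3 higher in the knockout. Pde3a, which breaks down cyclic nucleotides in smooth muscle, fell from 115 and 116 to 43.8 and 40.1 CPM (log2 change -1.46, SE 0.0820, adjusted p = 1.2e-09), and Adcy5, an adenylate cyclase gene, from 26.5 and 30.7 to 8.58 and 9.30 CPM (log2 change -1.69, SE 0.122, adjusted p = 2.3e-08). Of 33 phosphatase genes of the dual-specificity and receptor tyrosine families, 17 were lower and 9 higher. Ptprb, the endothelial receptor phosphatase, fell from 67.1 and 65.5 to 4.37 and 4.75 CPM (-3.86, adjusted p = 4.6e-12) and Dusp6, which switches off ERK, from 51.8 and 51.5 to 20.1 and 22.4 CPM (-1.29, adjusted p = 5.4e-09). All libraries of 1 genotype lay on 1 side of the other in these genes.

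Several cartilage-linked matrix genes were present in both genotypes and were lower in the knockout. Of 23 osteochondrogenic genes, 12 were lower and 4 higher. Col2a1, the main collagen of cartilage, fell from 567 and 571 to 279 and 270.4 CPM (log2 change -1.05, SE 0.0732, adjusted p = 1.5e-08), Col11a1 from 401 and 432 to 141 and 134 CPM (log2 change -1.60, SE 0.0914, adjusted p = 1.6e-09) and Acan (aggrecan) from 67.6 and 65.3 to 21.1 and 22 CPM (log2 change -1.62, SE 0.119, adjusted p = 2.7e-08). Matn2, a matrilin gene, rose from 30.4 and 31.2 to 73.3 and 79.5 CPM (1.31, adjusted p = 1.6e-09). Among growth factors, Pdgfd, a PDGF receptor ligand, fell from 155 and 154 to 31.4 and 29.8 CPM (-2.33, adjusted p = 3.0e-12), while Ephb6, an Eph receptor gene, rose from 5.31 and 6.79 to 90.9 and 97.1 CPM (3.92, adjusted p = 1.0e-12).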
